A study of Rattus norvegicus with 6 samples.

Results

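MicroRNAs best known from blood and immune cells were examined in PC12 cells, a cell line from a rat adrenal pheochromocytoma, a tumour of chromaffin cells that can take on neuron-like features. The rows were chosen by name, as every arm of miR-142, miR-144, miR-146a, miR-146b, miR-150, miR-155, miR-223, miR-451 and miR-486 in the deposited table. They came to 13 rows in a table of 1289, of which 584 hold known rat miRNAs and 705 are predictions that the authors numbered themselves. There were 3 libraries labelled EN and 3 labelled EC, all of PC12 cells. The labels explain neither abbreviation and name no treatment, dose or time for either group, and the series title speaks of Netrin-1, endothelial cell exosomes and the repair of peripheral nerve. Nothing in the labels says that replicates were separate cultures, so every p-value below measures only the spread between these libraries, which may be technical.

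A miRNA is cut from a hairpin precursor, and one strand, named 5p or 3p by its side of the hairpin, is loaded into an Argonaute protein, where its seed, bases 2 to 8 counted from the 5′ end, pairs with target mRNAs. The chosen miRNAs mark different blood lineages. MiR-142 is found throughout the haematopoietic system, miR-223 in myeloid cells, miR-150 in mature lymphocytes, and miR-144, miR-451 and miR-486 in red blood cell precursors. MiR-155 and the miR-146 pair differ from these in that inflammatory signals induce them, also in cells outside the blood. In human and mouse cells miR-146a is switched on by NF-kB and represses the adaptors Irak1 and Traf6, and miR-155 represses the cytokine signalling inhibitor Socs1.

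RefSeq mature sequences of the GRCr8 assembly were matched for 11 of the 13 rows, with none used for miR-150-5p and miR-486. They are 20 to 24 bases long. The rows that the results turn on are shown first, 5′ to 3′, with the seed in capitals, because the seed groups them.

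miR-146a-5p: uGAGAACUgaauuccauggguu
miR-146b-5p: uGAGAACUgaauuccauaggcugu
miR-155-5p: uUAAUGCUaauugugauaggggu
miR-451-5p: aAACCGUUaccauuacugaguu

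Blood lineage markers that were low or near 0 are shown in the same way.

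miR-142-3p: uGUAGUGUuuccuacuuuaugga
miR-223-3p: uGUCAGUUugucaaauacccc
miR-144-3p: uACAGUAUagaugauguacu

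Only miR-146a-5p and miR-146b-5p shared a seed, so the 11 sequences held 10 different seeds, and no other mature sequence of the RefSeq table had one of them. The first 17 bases of miR-146a-5p and miR-146b-5p were identical. Counted from the 5′ end of miR-146a-5p, the differences were G18A and U21C, and miR-146b-5p ran 2 bases further. The sources used here do not say how reads too short to reach these bases were assigned, so the split between both rows is uncertain.

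The libraries held 4521694 to 5371351 miRNA counts in EN and 6153582 to 6554639 in EC. The chosen rows together took 0.513 to 0.590 percent of these counts in EN and 0.495 to 0.526 percent in EC. Log2 levels correlated across rows with r of 0.944 to 0.965 between libraries of the same group and 0.944 to 0.958 between groups, where rows are not independent. As a check of the label, miR-7a-5p, a miRNA of neuroendocrine cells, stood at 1343 ± 131 CPM in EN and 1055 ± 80.2 CPM in EC (SD, n = 3). MiR-375-3p, another such marker, stood at only 2.75 ± 0.46 CPM in EN and 2.65 ± 0.61 CPM in EC. Of the other neuroendocrine markers listed for this check, miR-182 averaged 13.9 CPM in EN and 12.6 CPM in EC, miR-183-5p 1.73 CPM in EN and 5.58 CPM in EC, miR-96-5p 2.13 CPM in EN and 3.68 CPM in EC, and miR-7b 0.38 CPM in EN and 0.36 CPM in EC. Thus 1 of the 6 markers in the table was abundant. CPM are counts per 1000000 miRNA counts after scaling between libraries by TMM, which assumes that most miRNAs do not differ.

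Of the 13 rows, 6 were expressed, here a mean of 10 CPM or more in at least 1 group, 2 were low, at 1 to 10 CPM in the higher group, and 5 stayed under 1 CPM in both groups. Of the expressed rows, miR-451-5p reached a mean of 10 CPM in EN alone, at 23.3 CPM beside 8.10 CPM in EC. For scale, 275 of the 584 known rows averaged 10 CPM or more over the 6 libraries and 183 averaged under 1 CPM. The miRNAs are of like length, but whether their sequences entered the libraries equally well was not tested, so the order below is one of counts. The expressed rows ran over a 206-fold range of mean CPM, and miR-146a-5p alone took 61.0 percent of the counts of all 13, with miR-155-5p at 20.4 percent and miR-146b-5p at 15.4 percent. In falling order of level these were followed by miR-150-5p, miR-146a-3p and miR-451-5p, and every row among these 6 lay above the next in all 6 libraries with no overlap of their ranges. From miR-155-3p downward, the range of each row overlapped that of the next, so no order is given there.

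**Figure D1:**
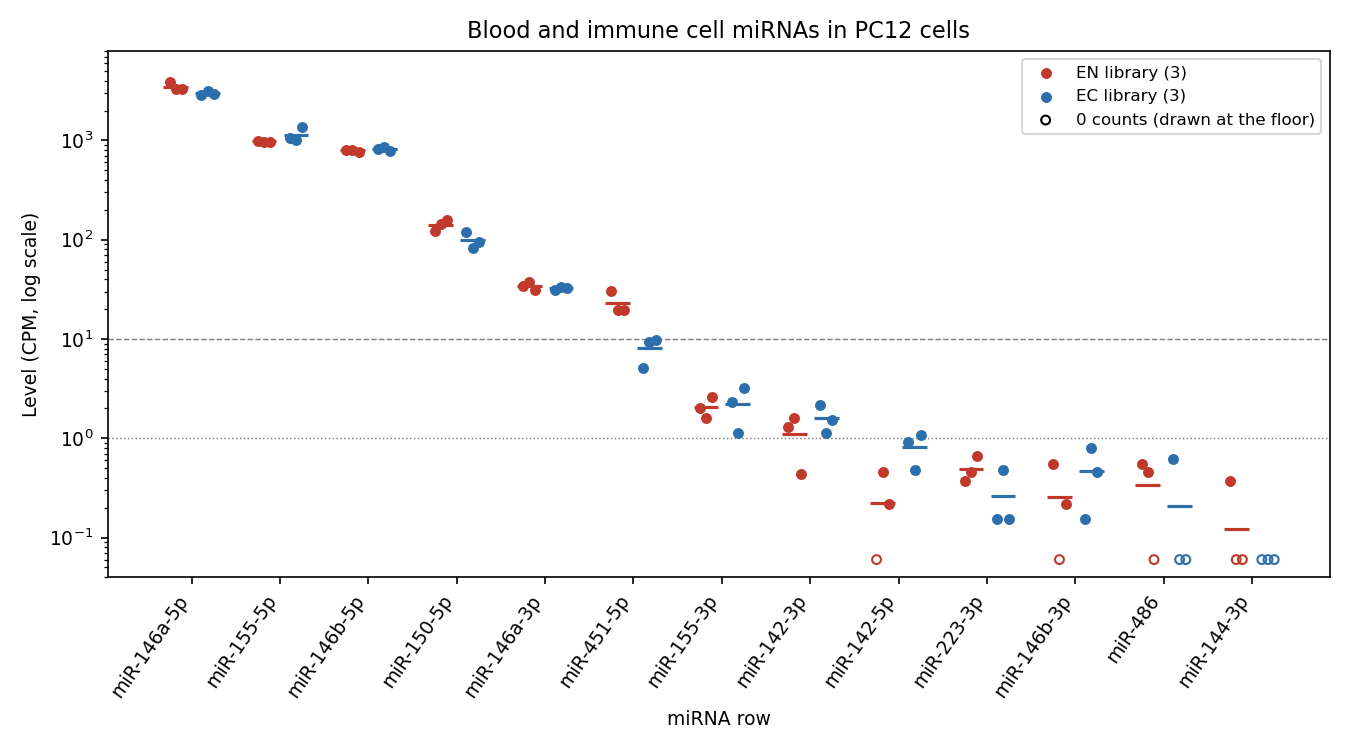
Level of each blood or immune cell miRNA row in CPM on a log axis, 1 point per library, with EN (3 libraries, red) left of EC (3 libraries, blue) and bars at the group means. Dashed and dotted lines mark 10 and 1 CPM, and open points are libraries with 0 counts; the rows fall from miR-146a-5p at 3486 CPM in EN and 2993 CPM in EC to miR-144-3p, which had counts in 1 EN library alone.

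The miRNAs that inflammatory signals induce were the abundant ones. MiR-146a-5p ranked 49 of the 584 known rows by mean level. It stood at 3870, 3323 and 3263 CPM in the EN libraries and at 2896, 3118 and 2965 CPM in the EC libraries. All EN values lay above all EC values, with EN replicate 1 the highest. The log2 fold change of EN over EC was 0.22 (SE 0.10), with a 95 percent interval of -0.026 to 0.46, and did not pass the quasi-likelihood test of edgeR at a threshold of 0.05 after adjustment over all rows (adjusted p = 0.273). When the counts were instead divided by the library totals implied by the deposited RPM values, the log2 fold change was -0.11 and the groups overlapped.

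MiR-155-5p (rno-miR-155-5p), the main product of the lncRNA gene Mir155hg, ranked 74 of the known rows. It stood at 994, 962 and 972 CPM in the EN libraries, against 1051, 1012 and 1370 CPM in the EC libraries. The EN values were close together and all below EC, where replicate 3 stood apart. The log2 fold change of -0.23 (SE 0.14, 95 percent interval -0.56 to 0.10) did not pass edgeR's test (adjusted p = 0.400), and it was -0.065 without EC replicate 3. With the library totals implied by RPM it was -0.55 and passed, with adjusted p = 0.0382 by the same edgeR test. The deposited RPM values themselves were 269, 233 and 248 in EN, and 345, 332 and 423 in EC.

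MiR-146b-5p, which carries the seed of miR-146a-5p, stood at 807, 808 and 767 CPM in EN and at 813, 867 and 786 CPM in EC. The groups overlapped in CPM, and the log2 fold change of -0.049 had a 95 percent interval of -0.29 to 0.19 (edgeR adjusted p = 0.815). With the library totals implied by RPM it was -0.38 and did not pass (edgeR adjusted p = 0.0761), and all EN values lay below EC in RPM. With the miR-146a-5p and miR-146b-5p rows added into 1, a check chosen after seeing the data, the log2 fold change was 0.16 (SE 0.097) and did not pass edgeR's test either (adjusted p = 0.384).

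The less abundant arms of both hairpins were counted too. The hairpins are shown with the counted arms in capitals, since they place each 5p and 3p row.

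Mir146a: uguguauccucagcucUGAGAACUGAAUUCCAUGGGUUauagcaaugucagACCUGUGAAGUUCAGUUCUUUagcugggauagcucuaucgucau
Mir155: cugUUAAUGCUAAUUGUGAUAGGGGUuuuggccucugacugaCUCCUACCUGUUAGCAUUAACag

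MiR-146a-3p stood at 34.2, 37.5 and 31.3 CPM in EN and at 31.2, 33.7 and 32.5 CPM in EC, with overlapping groups and a log2 fold change of 0.081 (95 percent interval -0.24 to 0.41) that did not pass edgeR's test (adjusted p = 0.774). It turned to -0.25 with the totals implied by RPM. The 5p arm of miR-146a had 113, 88.7 and 104 times the counts of the 3p arm in EN, and 92.9, 92.6 and 91.2 times in EC. MiR-155-3p (rno-miR-155-3p) had only 11, 7 and 12 counts in EN and 15, 7 and 21 in EC, so 1 read of the 3p arm came with 488, 601 and 370 reads of the 5p arm in EN, and with 454, 906 and 427 in EC. Its log2 fold change of -0.086 had a 95 percent interval of -1.16 to 0.99 (edgeR adjusted p = 0.926). The interval spans differences in both directions, so neither a rise nor a fall is read from these few counts. On the log2 scale, with 1 count added to both arms, the 5p to 3p ratio of miR-155 averaged 8.75 ± 0.32 in EN and 9.01 ± 0.54 in EC (SD, n = 3). By a two-sided exact permutation test over 3 against 3 libraries, which cannot give a p below 0.1, the p was 0.7 for miR-155 and 0.4 for miR-146a.

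MiR-150-5p (rno-miR-150-5p), which in mouse lymphocytes represses the transcription factor Myb, was present at an intermediate level and lay in the upper part of the known rows. It stood at 124, 142.4 and 157 CPM in the EN libraries, against 119, 83.0 and 95.7 CPM in the EC libraries. The EN values lay above the EC values, with EN replicate 1 and EC replicate 1 close to each other. The log2 fold change was 0.51 (SE 0.18, 95 percent interval 0.079 to 0.94) and did not pass edgeR's test after adjustment over all rows (adjusted p = 0.151). With the library totals implied by RPM the groups overlapped, and the log2 fold change was 0.18.

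MiR-451-5p (rno-miR-451-5p) was the 1 row among the chosen miRNAs to pass the threshold of 0.05, and it was higher in EN. In mouse and zebrafish its short hairpin is cut by Argonaute 2 and not by Dicer, so that nearly all of the mature product comes from the 5p side. The rat hairpin is shown with the counted arm in capitals.

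Mir451a: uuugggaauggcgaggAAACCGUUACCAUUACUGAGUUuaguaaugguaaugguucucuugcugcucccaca

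The libraries held 165, 86 and 90 counts of miR-451-5p in EN, against 33, 59 and 64 in EC. In CPM these were 30.5, 19.7 and 19.7 in EN and 5.10, 9.42 and 9.77 in EC. The groups did not overlap, and EN replicate 1 was the highest library and EC replicate 1 the lowest. The log2 fold change was 1.52 (SE 0.31, 95 percent interval 0.79 to 2.26), with adjusted p = 0.0471 by edgeR's quasi-likelihood test. With the totals implied by RPM it was 1.21 and passed (edgeR adjusted p = 0.0418), and the RPM values of 8.25, 4.75 and 5.04 in EN lay above those of 1.67, 3.09 and 3.02 in EC. The call was lost when any 1 of the 6 libraries was left out, with adjusted p from 0.0513 without EC replicate 2 to 0.131 without EN replicate 3, while the log2 fold change stayed between 1.28 and 1.70. It was also lost under limma-voom, with adjusted p = 0.0719.

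**Figure D2:**
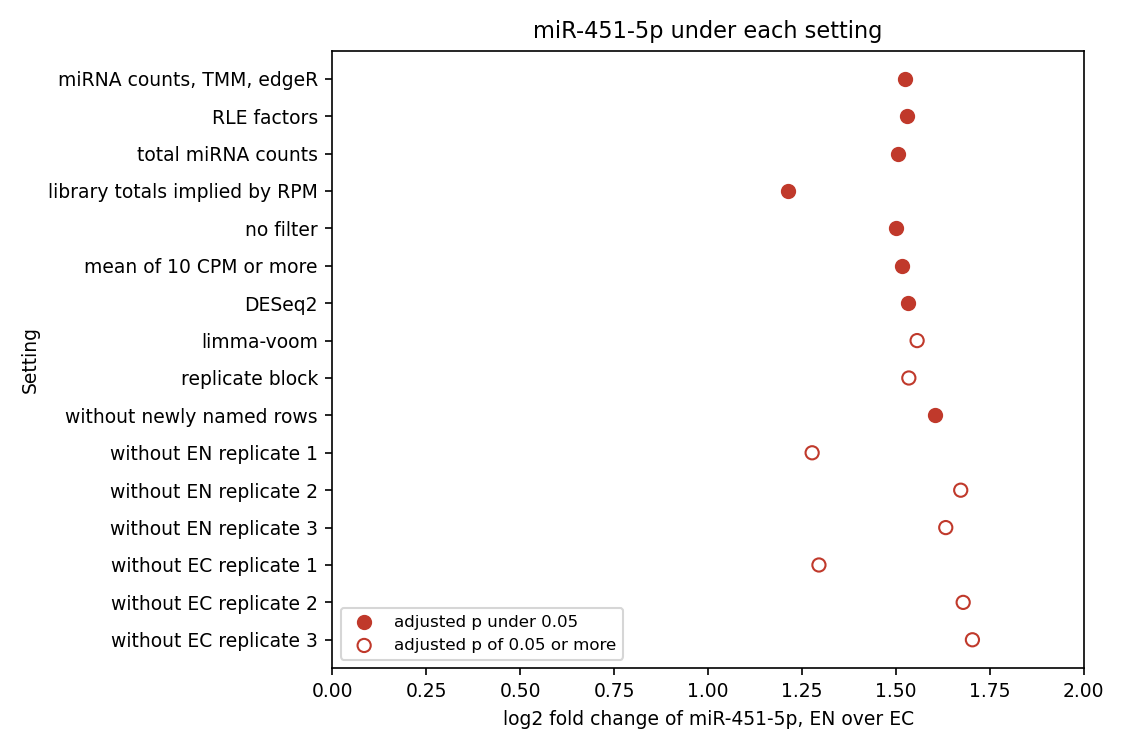
Log2 fold change of miR-451-5p, EN over EC, on the x axis under each setting on the y axis, filled where the adjusted p was under 0.05. The fold change stays between 1.21 and 1.70 under all 15 alternatives, and 7 of them pass.

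The other red blood cell markers were near 0 beside it. MiR-144-3p, whose gene Mir144 neighbours Mir451a and which shares its primary transcript in mouse and human, had 2, 0 and 0 counts in EN and 0 counts in all 3 EC libraries. A count of 0 allows up to 3 counts, or 0.458 to 0.479 CPM in an EC library. MiR-486, the further red cell miRNA, had 3, 2 and 0 counts in EN and 4, 0 and 0 in EC. The red blood cell list of miR-451-5p, miR-144-3p and miR-486, 3 of 4 listed markers, summed to 19.7 to 31.4 CPM in EN and 5.71 to 9.77 CPM in EC, nearly all of it miR-451-5p. In bulk RNA such as this, more cells of a type and more RNA per cell cannot be told apart. Where the miR-451-5p reads came from was not tested.

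The leukocyte miRNA miR-142-3p had 7, 7 and 2 counts in EN and 14, 7 and 10 in EC, and its other arm miR-142-5p had 0, 2 and 1 in EN and 6, 3 and 7 in EC. Both arms together came to 0.657 to 2.06 CPM in EN and 1.60 to 3.09 CPM in EC. The myeloid miR-223-3p had 2, 2 and 3 counts in EN and 1, 3 and 1 in EC. Counts of this size are a few reads per library, so no difference is read from them. MiR-146b-3p, with 3, 0 and 1 counts in EN and 1, 5 and 3 in EC, completes the 6 rows that were too low to be tested. The limit of 3 counts covers counting error alone.

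Of the 7 tested rows, 1 passed edgeR's test, miR-451-5p, and 0 passed lower in EN, against 3.98 percent of all 628 rows tested, or 2.07 percent higher and 1.91 percent lower in EN. At an unadjusted p under 0.05 the count was 136 of the 628 rows. Of the 7, 4 had a positive and 3 a negative log2 fold change, with a median of 0.081 beside 0.020 over all tested rows. The groups did not overlap for 4 of the 7 in CPM, 3 higher and 1 lower in EN, against 29.6 percent of all rows. The totals implied by RPM moved the median of all rows to -0.30, and in the RPM values 1 of the 7 lay wholly above EC and 3 wholly below. The share of all rows without overlap in RPM was not computed. The RPM count is therefore not read as a trait of the chosen rows. The order of the 7 fold changes was the same under both scalings. Changed totals move every row by nearly the same amount, so this order is not a separate check.

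**Figure D3:**
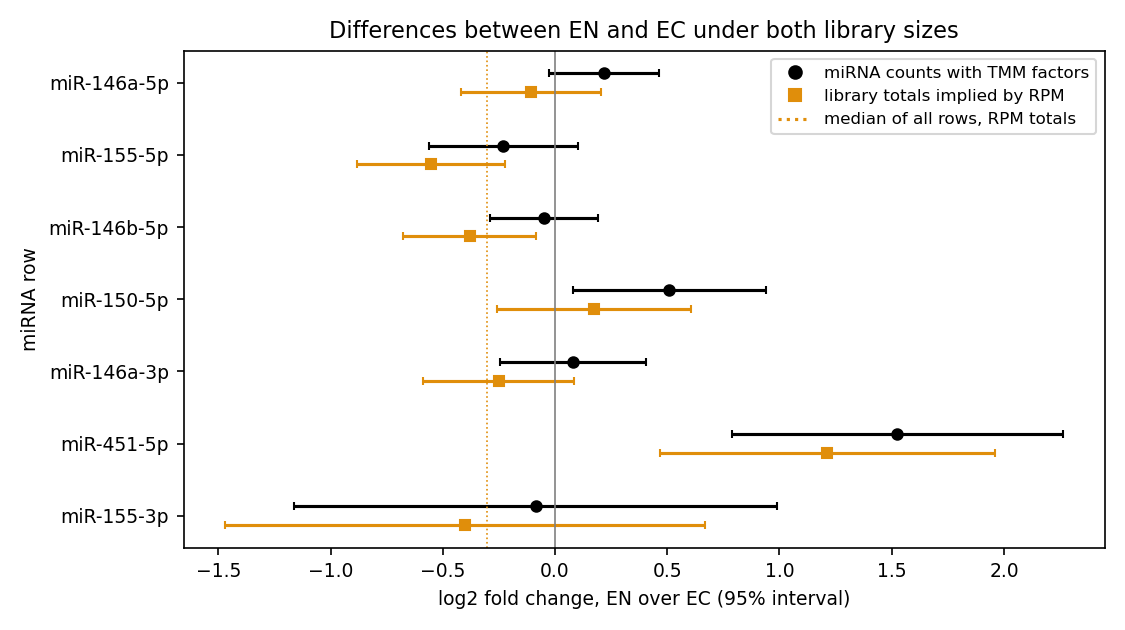
Log2 fold change of EN over EC with its 95 percent interval for the 7 tested rows, in black for miRNA counts with TMM factors and in orange for the library totals implied by RPM. MiR-451-5p lies to the right of 0 under both, at 1.52 and 1.21, while miR-146a-5p lies at 0.22 and -0.11; the dotted line is the median of all rows under the RPM totals, at -0.30.

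Ratios between miRNAs of the same library need no library size, and those of the 5 expressed rows that are the main arm of their hairpin were compared in 10 pairs, a choice made after seeing the data. MiR-146a-5p had 3.90, 3.46 and 3.36 times the counts of miR-155-5p in EN, against 2.76, 3.08 and 2.16 times in EC. Its ratio to miR-146b-5p was 4.80, 4.11 and 4.25 in EN and 3.56, 3.60 and 3.77 in EC. Both ratios were higher in every EN library than in any EC library. Their two-sided exact permutation p was 0.1 each, or 0.125 after adjustment over the 10 pairs, and neither passed. The split of reads between miR-146a-5p and miR-146b-5p is uncertain, which limits the ratio of these rows.

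MiR-155-5p had 8.03, 6.75 and 6.17 times the counts of miR-150-5p in EN, and 8.85, 12.2 and 14.3 times in EC. Its ratio to miR-451-5p was 32.6, 48.9 and 49.3 in EN and 206, 107 and 140 in EC. The ratio of miR-150-5p to miR-451-5p was 4.05, 7.24 and 7.99 in EN and 23.3, 8.81 and 9.80 in EC. That ratio restates the log2 fold changes of both rows, 0.51 for miR-150-5p and 1.52 for miR-451-5p, and is no separate check. In all, 8 of the 10 pairs did not overlap between groups, where 34.8 percent of the 37128 pairs of known rows with a mean of 10 CPM or more and no 0 did not. The pairs share members and are not independent. All pairs with miR-451-5p were among the 8, and most of the rows paired had already been seen not to overlap in CPM. The 8 pairs thus partly restate those differences, and no excess over the 34.8 percent is read from them. The two-sided exact permutation p of each of these 8 was 0.1, the smallest that 3 against 3 libraries allow, or 0.125 after Benjamini-Hochberg adjustment over the 10 pairs. The pairs of miR-146a-5p with miR-150-5p and of miR-155-5p with miR-146b-5p overlapped.

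**Figure D4:**
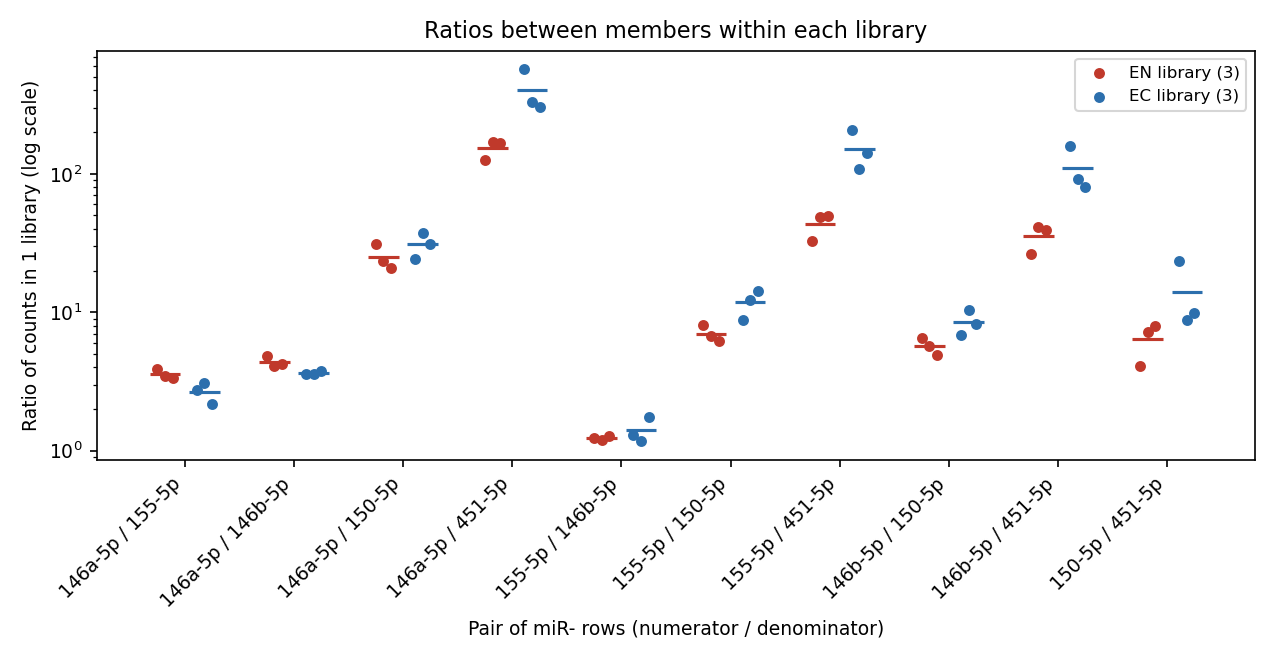
Ratio of counts within each library for 10 pairs of rows on a log axis, 1 point per library, with EN (red) left of EC (blue) and bars at the group means. All 4 ratios with miR-451-5p as denominator are lower in EN, such as 32.6 to 49.3 in EN against 107 to 206 in EC for miR-155-5p.

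Among the known rows of 10 CPM or more, those nearest in pattern to each tested row were found by the root mean square difference of centred log2(CPM + 1) over the 6 libraries. For miR-146a-5p this was miR-350, with a difference of 0.038 where the median over 275 rows was 0.28, then miR-363-3p at 0.074. For miR-155-5p it was miR-125a-5p, at 3120 ± 48.6 CPM in EN and 3655 ± 457 CPM in EC (SD, n = 3), with a difference of 0.10, then miR-23a-5p at 0.12. For miR-146b-5p these were miR-340-3p at 0.049 and let-7i-5p at 0.066. MiR-150-5p was nearest to miR-187-3p at 0.082, followed by miR-23a-3p at 0.14. MiR-187-3p stood at 143.6 ± 14.9 CPM in EN and 105 ± 11.3 CPM in EC, and was also the known row next above miR-150-5p in level. The nearest to miR-146a-3p were miR-99a-5p at 0.076 and miR-181a-5p at 0.077, and those to miR-155-3p were miR-702-3p at 0.19 and miR-148b-3p at 0.21. No row came as close to miR-451-5p, but the difference is not scaled for how much a row itself varies. The nearest to miR-451-5p were miR-139-5p at 0.40, with a log2 fold change of 0.98, and miR-1306-5p at 0.50, where the median difference was 0.84. For the other tested rows the median was 0.23 to 0.41, so no distinct pattern is read from these distances.

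In level, miR-146a-5p lay between miR-151-5p at 3358 CPM and miR-328a-3p at 3185 CPM over the 6 libraries, and miR-155-5p between miR-3596c at 1075 CPM and miR-15b-5p at 1020 CPM. MiR-146b-5p lay between miR-129-2-3p at 808.03 CPM and miR-425-5p at 783 CPM, and miR-150-5p above miR-532-3p at 119 CPM. MiR-146a-3p came between miR-194-5p at 34.0 CPM and miR-1306-3p at 31.7 CPM. MiR-451-5p came between miR-328a-5p at 16.2 CPM and miR-6328 at 15.2 CPM, and miR-155-3p between miR-760-5p and miR-1956-3p at 2.16 and 2.12 CPM.

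A list of 23 arms of other miRNAs known in blood lineages and inflammation was read beside these rows. Of its members, 20 were tested, 1 rose in EN, 1 fell and 18 did not pass edgeR's test, where 2.07 percent of all 628 rows were called higher and 1.91 percent lower. The one that rose was miR-222-3p, which in human cells restrains the stem cell factor receptor Kit, at 77325 ± 3539 CPM in EN and 55258 ± 1797 CPM in EC (SD, n = 3, edgeR adjusted p = 0.0167). The one that fell was miR-126a-5p, the minor arm of a miRNA of endothelial cells and blood progenitors, at 33.2 ± 5.55 CPM in EN and 60.3 ± 5.20 CPM in EC (edgeR adjusted p = 0.0471). With the totals implied by RPM miR-222-3p no longer passed (edgeR adjusted p = 0.240), nor did it without EN replicate 2 or EN replicate 3, and miR-126a-5p passed without EC replicate 2 and in no other fit that left out 1 library. The main arm miR-126a-3p stood at 1102 ± 84.4 CPM in EN and 1048 ± 37.0 CPM in EC. The 20 had 10 positive and 10 negative log2 fold changes with a median of 0.027. Its 3 members of highest mean level over the 6 libraries were miR-22-3p at 87708 ± 4151 CPM in EN and 74901 ± 2484 CPM in EC, miR-222-3p, and miR-21-5p, which inflammation and tumours raise, at 47352 ± 2415 CPM in EN and 44637 ± 4918 CPM in EC. Neither miR-22-3p (log2 fold change 0.23) nor miR-21-5p (0.085) passed. MiR-146a-5p, the highest of the chosen rows, thus stood far below the most abundant miRNAs of these cells.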

How the data were processed

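The authors deposited 1 table with whole-number read counts per mature miRNA arm for 6 libraries, and beside each count an RPM value. Each deposited RPM is the count scaled by a single total per library, to within 0.0015, in 100 percent of rows. These totals, 17861218 to 19993630 reads in EN and 19102486 to 21207786 in EC, exceed the summed miRNA counts, and no label or header says what they hold. Trizol was used to extract RNA and libraries were built with a TruSeq kit (Illumina), per the labels' protocols. HISAT2 2.0.5 and Rnor 6.0 are listed, per the submitters' processing notes, with no role. The counting program, miRNA annotation, strand rule and handling of multiple matches were not given in the sources used here.

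Count data entered edgeR 4.0.16 in R 4.3.3 (filterByExpr, TMM factors, robust quasi-likelihood fit, all 6 libraries, no block). Adjustment (Benjamini-Hochberg) ran over 628 rows, and 0.05 was the threshold. An SE is the size of the log2 fold change over the root of its F statistic. Alternatives used RLE or no factors, totals implied by RPM, other filters, DESeq2 1.42.0, limma-voom (limma 3.58.1), a replicate block, no newly named rows, and 1 library left out. The fits were also run on simulated data, and no result here rests on that run. Exact tests and figures used Python 3.11.15, scipy 1.17.1 and matplotlib 3.10.9. Sequences, and which genes neighbour each other, come from RefSeq tables of GRCr8, whose coordinates are not used because the build differs.

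The miRNAs, lists and tests were chosen with earlier results of these data known. Named were all chosen rows, list members past the threshold or among the 3 of highest level, the 2 rows nearest in pattern, and the neighbours in level.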

Additional observations from a re-analysis of the deposited data

How the results depend on the processing

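The 25 calls over all rows, 13 higher and 12 lower in EN, became 101 (13 higher, 88 lower) with the totals implied by RPM, 70 with DESeq2, 44 without a filter, 16 with limma-voom and 2 to 39 without 1 library. MiR-451-5p kept its direction in all 15 alternatives and passed in 7. It did not pass under limma-voom (1.56, adjusted p = 0.0719) or without 1 library (1.28 to 1.70). A replicate block by number left 2 calls, and miR-451-5p, at 1.53 with adjusted p = 0.156, was not among them. Libraries of the same number had deviations that correlated at 0.076, -0.052 and 0.0070, so the numbers were not taken as pairs. Of the rows that did not pass, miR-146a-5p, miR-146a-3p, miR-146b-5p and miR-155-3p turned sign in some settings. MiR-155-5p stayed negative and miR-150-5p positive in all 15 alternatives. With totals implied by RPM, where the median of all rows was -0.30, miR-146a-5p became -0.11 and miR-146a-3p -0.25, and miR-155-5p, at -0.55, passed. MiR-146b-5p became -0.38 with the totals implied by RPM and 0.027 without newly named rows, and ranged from -0.066 to 0.015 without 1 library. MiR-155-3p became -0.40 with the totals implied by RPM and 0.022 under limma-voom, and ranged from -0.37 to 0.29 without 1 library. The log2 5p to 3p ratio of miR-155, lower by -0.26 in EN, ranged from -0.43 to 0.051 without 1 library. The miRNA counts were 25.0 to 26.9 percent of the totals implied by RPM in EN and 30.9 to 32.6 percent in EC. The groups did not overlap in this share, so changing the divisor shifted EN against EC. Why the share differed was not tested. Beyond the changed divisor and the fewer libraries, the cause of these changes was not tested. The mean of 10 CPM left miR-155-3p untested. MiR-150-5p passed in 0 of 15 alternatives, with log2 fold changes of 0.18 to 0.67. Depth limits miR-155-3p, miR-142, miR-223, miR-486 and miR-144, at 21 counts or fewer per library.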
